A study of Drosophila melanogaster with 2 samples.

Results

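The retinal determination genes are the 10 fly genes ey, toy, so, eya, dac, Optix, eyg, toe, hth and tsh, which specify the eye field. They were examined for binding of the homeodomain protein Rx in a chromatin immunoprecipitation (ChIP) experiment. Peaks were taken by position only: a peak was given to a gene when its summit fell between 10 kb before and 10 kb after that gene, in the Ensembl annotation of dm6, out of 13968 protein-coding genes on the chromosome arms. All 10 genes were found. In the main list they held 6 of 3303 peaks, and 3 of the 10 genes had at least 1. The genes hth, so and eyg held 4, 1 and 1 peaks. Over all protein-coding genes the same rule found a summit at 51.6%. The other 7 genes, ey, toy, eya, dac, Optix, toe and tsh, had none. With 1 group and no control group, the counts are descriptions, and no test was made of whether these genes differ from others.

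The animals were whole Drosophila melanogaster embryos of strain Rx-GFP, 0 to 24 h old, carrying a transgene for an Rx-eGFP fusion protein, which was precipitated with an anti-GFP antibody. There was 1 group with 2 biological replicates. Both carry the transgene, and embryos without it were not analysed here. Which promoter drives the fusion, and the sex of the embryos, were not named in the labels. A possible control experiment that the labels name was not analysed here, and the labels' antibody field names Rx. The data are 8 peak lists: 4 thresholded on the irreproducible discovery rate (IDR), a measure of how well peak ranks repeat, and 4 longer ranked lists that also hold weak candidates. Each replicate has 1 list of each kind, with 2438 and 2209 thresholded peaks. A further pair of each kind was made for the whole series. The main list is the series-wide thresholded list called conservative. Peak height is the authors' signal value, on a scale not stated, and read depth is unknown. In whole embryos of all these ages, binding in few cells and weak binding in many cells cannot be told apart.

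In flies the Pax6 proteins Ey and Toy, the Six-family homeodomain protein So, its coactivator Eya and the nuclear factor Dac form a regulatory network that can start eye development, and several of them activate one another. Optix is a second Six-family protein, Eyg and Toe are Pax proteins of which Eyg promotes growth of the eye disc, and the homeodomain protein Hth and the zinc finger protein Tsh act early in eye progenitors. Vertebrate Rx genes are required for eyes. The fly gene is known from the development of the brain and head. Several of the 10 genes, among them hth and tsh, also act outside the eye in embryos.

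Sequences from 100 bp before to 100 bp after a summit are shown for the 3 hth peaks present in every thresholded list, for the eyg peak, for the replicate 2 peak near toy, and for the tallest peak near tsh, which missed the threshold. They were read from the plus strand of the Release 6 genome, the dm6 assembly. Capitals mark matches, on either strand, to 12 motifs. Those of homeodomain proteins are the core TAATTA, the K50 form TAATCC, the Six-family form TGATAC, the Hth and Meis form TGACAG, and the paired-class dimers, in which TAAT is followed by its reverse complement after 3 or 2 bases. The others are the DRE, by its letters TATCGATA, the BEAF-32 motif CGATA that lies within it, the CTCF-like word TGGCGC, the GAGA factor motif GAGAGA, the E-box CAGCTG and the word ACAGTG.
hth, intron, chr3R:10597694-10597894: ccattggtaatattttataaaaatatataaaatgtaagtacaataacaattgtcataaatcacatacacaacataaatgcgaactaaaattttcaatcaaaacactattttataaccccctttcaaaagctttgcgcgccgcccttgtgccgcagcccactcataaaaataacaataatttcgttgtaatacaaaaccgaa
hth, intron, chr3R:10560663-10560863: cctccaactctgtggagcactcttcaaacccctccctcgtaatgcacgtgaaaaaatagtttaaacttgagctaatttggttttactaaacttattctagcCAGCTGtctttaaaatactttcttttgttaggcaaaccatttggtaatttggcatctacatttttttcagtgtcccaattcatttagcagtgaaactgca
hth, upstream, chr3R:10648910-10649110: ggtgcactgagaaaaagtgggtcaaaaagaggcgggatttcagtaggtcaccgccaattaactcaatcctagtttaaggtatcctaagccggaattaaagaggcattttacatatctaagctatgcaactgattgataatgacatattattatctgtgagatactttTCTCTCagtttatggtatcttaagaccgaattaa
eyg, downstream, chr3L:12457437-12457637: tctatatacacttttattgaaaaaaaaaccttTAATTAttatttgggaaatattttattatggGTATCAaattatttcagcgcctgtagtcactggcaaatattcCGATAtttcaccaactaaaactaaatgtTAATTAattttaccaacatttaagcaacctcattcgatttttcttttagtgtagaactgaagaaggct
toy, upstream, chr4:982919-983119: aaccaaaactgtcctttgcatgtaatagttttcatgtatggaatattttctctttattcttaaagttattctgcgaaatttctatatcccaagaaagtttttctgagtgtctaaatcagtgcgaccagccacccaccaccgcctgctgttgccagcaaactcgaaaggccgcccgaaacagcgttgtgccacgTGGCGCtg
tsh, downstream, chr2L:21846452-21846652: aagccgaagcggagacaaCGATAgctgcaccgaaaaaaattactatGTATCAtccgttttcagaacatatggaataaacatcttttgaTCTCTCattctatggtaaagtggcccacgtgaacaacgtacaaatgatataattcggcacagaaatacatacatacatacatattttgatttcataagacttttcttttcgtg

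No motif was shared by all 3 recurrent hth windows. The hth window 41.8 kb inside the gene matched none of the 12 motifs. The window 78.8 kb inside held an E-box starting 1 bp after the summit, a motif found in 9.75% of the 3250 main-list windows on the arms. The upstream window held a GAGA factor motif, as did 10.9% of all windows. Of the 6 main-list windows at these genes 2 held it, the other being that of the hth peak 1.77 kb upstream. The eyg window is the only one of the 6 main-list windows at these genes with the homeodomain core. It held the core at 2 places, 68 bp before and 33 bp after the summit, a Six-family motif 37 bp before it and a BEAF-32 motif (27.2% of all windows). The core was in 15.4% of all main-list windows and the Six-family motif in 6.28%. The toy window held a CTCF-like motif, found in 8.37% of all windows. The tsh window held motifs of GAGA factor, BEAF-32 and Six-family proteins. The ACAGTG word was chosen with earlier results of these data known. It was in 22.03% of all windows and in 1 of the 6 main-list windows, that of so. No window at the 10 genes in the main list held a paired-class dimer (2.71% and 2.15% of all windows). None held a K50 (5.75% of all windows), Hth and Meis (6.98%) or DRE (2.68%) match. With 200 bp to each side, 1 of the 6 held a dimer spaced by 3 bases, against 4.37% of all windows of that length. A match is a run of letters, not a shown site.

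Of the retinal determination genes, hth had the highest peaks and the most of them. It encodes a Meis-family homeodomain protein that carries Extradenticle into the nucleus. At chr3R:10507561-10639568 on the minus strand it is the longest of the 10, spanning 132 kb, and its range with 10 kb flanks makes up 32.8% of the total range examined. Replicate 1 had 4 thresholded hth peaks and replicate 2 had 3. The other series-wide list had 3. Genes of at least 100 kb had a summit in 66.7% of 87 cases, with a median of 2. Of those 87 genes, hth included, 14 had more summits than hth and 69 had fewer. Per 100 kb, hth had 2.63 main-list summits, against 2.36 over all arms, chromosomes 4 and Y included. The ranges of the other 9 genes had 0.642. Those 9 ranges include ey and toy on chromosome 4. That chromosome had 2.23 main-list peaks per Mb and Y had 0.818, against 22.6 to 27.2 on 2L, 2R, 3L, 3R and X.

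The highest hth peak lay 41.8 kb downstream of the outermost start, at chr3R:10597652-10597935, in an intron. Its signal was 162 in the main list, where it ranked 673, and 95.9 in replicate 1 and 72.7 in replicate 2. The stretch between annotated exons that holds it is 9.19 kb long. A second intronic peak, 78.8 kb from that start at chr3R:10560621-10560904, had 161 in the main list, 111 in replicate 1 and 49.05 in replicate 2. It ranked 425 of 2438 in replicate 1 and 1442 of 2209 in replicate 2. The third peak, chr3R:10648868-10649151, lay 9.44 kb upstream of the gene in intergenic sequence. It had 119.9 in the main list, 46.6 in replicate 1 and 77.2 in replicate 2. The replicates thus ordered these 3 peaks differently: the peak at 78.8 kb was the highest in replicate 1 and the upstream peak was the highest in replicate 2. The ratio of replicate 1 to replicate 2 was 2.27 for the peak at 78.8 kb, 1.32 for that at 41.8 kb and 0.604 for the upstream peak. Over 3257 main-list peaks with a ranked peak in both replicates the median ratio was 1.07 and the middle 90% ran from 0.621 to 1.82, so 2 of the 3 lay outside that span.

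Further hth peaks were low, and none was in the thresholded lists of both replicates. The fourth main-list peak, chr3R:10641196-10641479, lay 1.77 kb upstream of the gene, in an exon of the antisense noncoding gene asRNA:CR44018. Its signal was 47.1, rank 3199 of 3303. It had 25.1 and 28.8 in the ranked lists of replicates 1 and 2, a ratio of 0.872. Neither replicate's thresholded list held it. Replicate 1 alone had a thresholded peak at chr3R:10564289-10564568, 3.67 kb from the peak at 78.8 kb, with a signal of 36.4 against 13.8 in replicate 2. Both annotated start positions of hth, which lie 25.3 kb apart, had no thresholded peak within 500 bp.

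**Figure D1:**
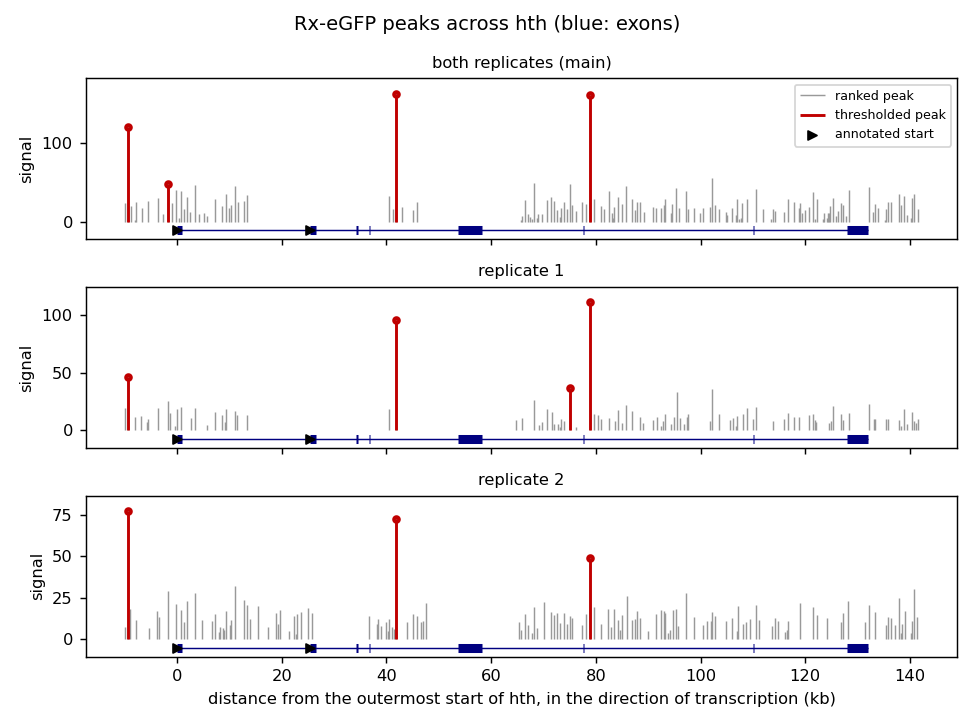
Peaks across hth by distance from its outermost start (kb, horizontal) and signal (authors' units, vertical) in the main lists and in each replicate. Grey lines are ranked peaks, red lines are thresholded peaks, blue bars are exons and black arrowheads are the annotated starts. The peaks at 41.8 and 78.8 kb and the peak 9.44 kb upstream are red in all 3 panels, and stretches inside the gene hold no ranked peak.

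Stretches of hth held no candidate peak at all, even in the ranked lists. In the main ranked list there was none between 13.4 and 40.4 kb or between 45.8 and 65.7 kb from the start, so the highest hth peak lay in a short run of candidates between gaps of 27.0 and 19.9 kb. Replicate 1 had gaps of 27.1 and 22.9 kb in the same parts of the gene, and replicate 2 had gaps of 10.9 and 17.6 kb. Such gaps, defined after the data were seen as at least 10 kb between neighbouring ranked summits, took up 30.9% of the hth range in the main ranked list, 32.9% in replicate 1 and 18.8% in replicate 2. Over the 5 large arms they took up 17.6%, 18.1% and 15.1%. Among the other genes off chromosome 4, the share in the main ranked list ran from 0 at toe to 47.2% at eyg. At eya it was 41.4% in the main ranked list, 41.3% in replicate 1 and 0 in replicate 2. Soft-masked repeat sequence made up 20.3% of the hth range, and its part in the gaps was not tested.

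The Pax6 genes ey and toy, at the head of the network, had no main-list peak and not even a candidate in the main ranked list. Both lie on chromosome 4, ey at chr4:697689-721173 and toy at chr4:989725-1007922. Replicate 2 had 1 thresholded peak near toy, at chr4:982891-983146 with a signal of 46.5, ranked 1559 of 2209. It lay 6.71 kb upstream of toy and nearer to a start of fuss, 4530 bp away. Neither replicate 1 nor either series-wide ranked list had a peak at that place. In replicate 2, ey had 5 ranked peaks with signals up to 19.1, none thresholded, and replicate 1 had none. The other series-wide ranked list held 2 weak peaks in an intron of ey, of 16.7 and 7.43.

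Few other genes of chromosome 4 had candidates. Of its 80 protein-coding genes, 1 had a main-list summit in range. In the main ranked list 73 of the 80 had no ranked peak in range (91.3%), against 2.11% of genes on 2L, 2R, 3L, 3R and X. A ranked peak was in range of 97.4% of all genes and of 8 of these 10. Chromosome 4 had 31.9 ranked peaks per Mb in replicate 1 and 55.6 in replicate 2, against 696 to 799 and 816 to 896 per Mb on the 5 large arms. Soft-masked sequence was 27.8% of 4 and 18.1 to 21.2% of those arms. It was 20.8% of the ey range and 29.0% of the toy range. The absence of peaks at ey and toy and their place on 4 cannot be told apart.

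**Figure D2:**
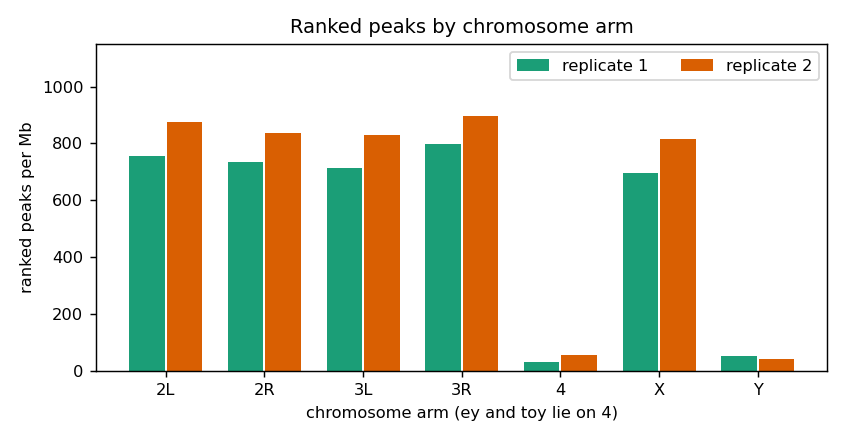
Ranked peaks per Mb (vertical) on each chromosome arm (horizontal) in replicate 1 and replicate 2. Bars of chromosome 4, which carries ey and toy, reach 31.9 and 55.6 per Mb, against 696 or more on 2L, 2R, 3L, 3R and X.

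Among so, Optix and eya, the first had 1 low promoter peak and the others had none in the main list. The so peak, chr2R:7418980-7419263, lay 228 bp upstream of the start of the gene (chr2R:7419350-7434872). Its signal was 58.9, rank 2737 of 3303, and 17.1% of main-list peaks were lower. In the ranked lists of replicates 1 and 2 it had 30.5 and 25.3, and neither thresholded list contained it. It was also absent from the other series-wide list, where the same peak had a −log10 global IDR of 1.19 against 2.17 in the main ranked list. It was the only main-list peak of the 10 genes within 500 bp of a start, 1 of 6 (16.7%, 95% Wilson interval 3.01 to 56.4%), against 42.7% of all main-list peaks on the arms.

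Optix, whose product is related to vertebrate Six3 and Six6, had a thresholded peak in replicate 1 alone. That peak, chr2R:8032071-8032350, lay in a coding exon with a signal of 33.3, rank 2306 of 2438, and 19.0 in the ranked list of replicate 2. In the main ranked list the overlapping peak had 44.5. The gene eya (chr2L:6527447-6546976), which encodes a coactivator with a phosphatase domain, had no thresholded peak in any list. Its candidates differed between replicates. The highest in replicate 1, in an intron 4.70 kb from the start, had 30.4 there and 6.97 in replicate 2. The highest in replicate 2, in an intron 7.21 kb from the start, had 25.7 there and 7.29 in replicate 1. The highest in the main ranked list, with 43.05, lay 6.46 kb upstream of eya and nearer to a start of IFT52.

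The gene dac (chr2L:16466512-16485998), which encodes a nuclear factor related to Ski and Sno, had 33 candidates in the main ranked list and no thresholded peak in any list. The highest had its summit 15 bp from the dac start, with a signal of 41.6 in the main ranked list, 23.3 in replicate 1 and 17.2 in replicate 2, and a −log10 global IDR of 0.916, where the lowest of the 6 main-list peaks had 2.17. In replicate 2 a higher candidate, of 30.1, lay at the promoter of the neighbour Nepl8, where replicate 1 had no ranked peak.

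The Pax genes eyg and toe are neighbours on 3L, and 1 main-list peak lay between them. It is at chr3L:12457395-12457678, 5000 bp beyond the 3′ end of eyg (chr3L:12462537-12468021), in intergenic sequence, and nearest to the start of eyg at 10.5 kb. Its signal was 52.5, rank 3052 of 3303. Replicates 1 and 2 had 28.7 and 26.0 there, close to each other, but neither thresholded list held the peak, and the other series-wide list missed it with a −log10 global IDR of 1.98. The gene toe had no thresholded peak in any list. It had the most candidates per 10 kb of the 10, 14.6 in the main ranked list, above 90.1% of all genes. The highest, of 47.2, sat at the promoter of the neighbour ArfGAP1, 15.1 kb from the start of toe, and its window held a DRE.

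The gene tsh (chr2L:21828593-21837011), which encodes a zinc finger protein, had no thresholded peak in any list. The highest candidate, whose sequence is printed above, lay 17959 bp downstream of its start, with 50.4 in the main ranked list. Replicate 2 had 36.3 there, rank 2414 of its ranked list, and replicate 1 had 17.6. A second candidate 9.51 kb from the start had 46.3 in the main ranked list, with 19.3 in replicate 1 and 24.7 in replicate 2.

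**Figure D3:**
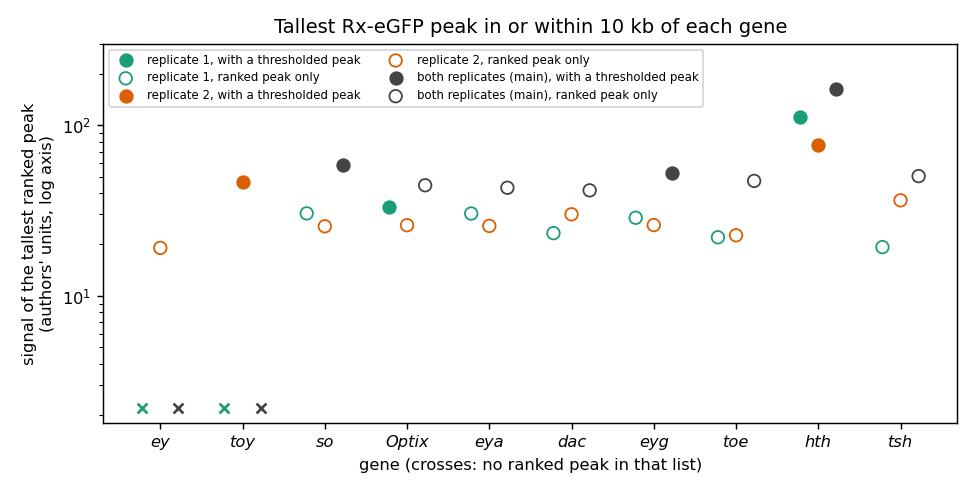
Signal of the tallest ranked peak in or within 10 kb of each gene (vertical, log axis, authors' units) for replicate 1, replicate 2 and the main ranked list. Filled points mark genes with a thresholded peak in that list, open points genes with ranked peaks only, and crosses genes with no ranked peak. The hth points, at 111, 77.2 and 162, are the highest in each list, and the other genes lie between 19.1 and 58.9.

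Among the 10 genes, only hth had peaks that recurred in both replicates' thresholded lists. Of the 6 main-list peaks, 3 overlapped a thresholded peak of both replicates (50%, 95% Wilson interval 18.8 to 81.2%), all at hth, and the other 3, at hth, so and eyg, overlapped one of neither. Over all 3303 main-list peaks the shares were 50.2% in both and 25.2% in neither. The 6 peaks had a median signal of 89.4, against 89.6 over the list, but this median lies in a gap: the 3 recurrent hth peaks had 119.9 to 162 and the other 3 had 47.1 to 58.9. In replicate 1, 2 of the 10 genes had a summit (hth and Optix) against 44.0% of all genes. In replicate 2, 2 did (hth and toy) against 41.8%. In the other series-wide list 1 did (hth) against 53.0%.

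Longer genes had a main-list summit in range more often, from 37.5% of genes under 1000 bp to 68.2% of those from 64000 to 128000 bp, but 58.3% of the 48 genes of at least 128000 bp, the class of hth, had one. The shortest of the 10, eyg, spans 5.49 kb, and of genes at least that long 61.2% had a main-list summit. Of genes at least as long as the median of the 10 members, 64.9% did. Within 2 kb, hth and so had a summit, 2 of 10 against 26.5% of all genes. Inside the gene only hth did, 1 of 10 against 9.40%.

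**Figure D4:**
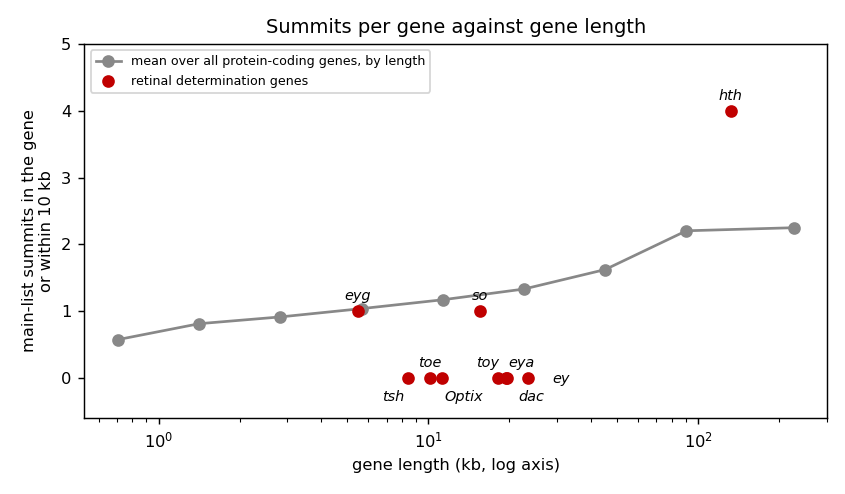
Main-list summits in each gene or within 10 kb (vertical) against gene length (kb, log axis). Grey points are means over all protein-coding genes in bins of length and red points are the 10 genes. The hth point, at 4, lies above the grey line, eyg and so at 1 lie just below it, and 7 genes lie at 0.

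In the main ranked list, 14 of the 380 peaks at these genes had a global IDR under 5% (3.68%), near the 3.88% of the whole list (5377 peaks). They include the 6 main-list peaks. Of the other 8, 5 belonged to hth, with signals of 41.3 to 49.2, 4 in introns and 1 just beyond the 3′ end. The other 3 were at so (43.8, in a coding exon), at tsh (46.3) and at toe (47.2, the ArfGAP1 promoter). Of the 380 summits, introns held 45.5%, intergenic sequence 31.1% and promoters 6.32%, against 36.7%, 25.8% and 12.1% of all ranked summits on the arms. The long introns of hth held 114 of the 173 intronic summits. The median signal of the 380 peaks was 19.7, against 17.8 over the whole list. Per 100 kb of range the 8 genes off chromosome 4 had 99.5 ranked peaks. Over all arms there were 98.8, but that value includes chromosomes 4 (37.1 per Mb) and Y (141 per Mb). On 2L, 2R, 3L, 3R and X there were 965 to 1088 per Mb.

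Peaks just outside the 10 kb limit were in part far higher than those inside it. Inside, the nearest to the limit is the upstream hth peak at 9.44 kb. Between 10 and 20 kb lay 8 main-list peaks, at eya, Optix, eyg and toe, and hth, so, ey, toy, dac and tsh had none there. The highest, of 479, lay 18.5 kb from Optix and nearest to a start of CG12769, with 294 in replicate 1 and 183 in replicate 2. Another of 365 lay 16.9 kb from Optix on its other side, nearest to CG14762. Near eya, a peak of 438 lay 15.2 kb away at the promoter of Trmt6, with 233 in replicate 1 and 211 in replicate 2. A peak 10.6 kb from eya, at the promoter of IFT52, had 68.0. The one near toe, of 120.4, had 36.9 in replicate 1 and 84.2 in replicate 2. With a 20 kb limit, 6 of the 10 genes had a summit, against 68.7% of all genes. All 8 peaks between 10 and 20 kb were nearest to the start of a gene other than the 10: CG12769, CG14762, Trmt6, IFT52, CG33725 or SCaMC.

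**Figure D5:**
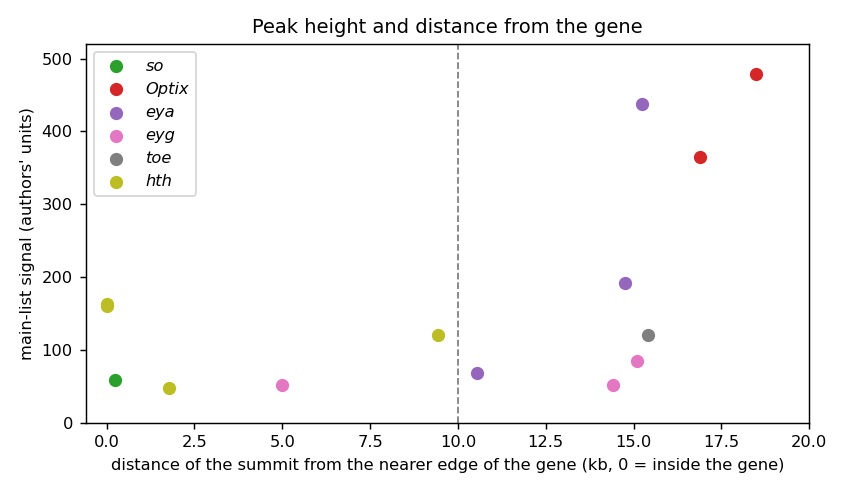
Main-list peaks by distance of the summit from the gene (kb, horizontal, 0 inside the gene) and signal (authors' units, vertical), colored by gene. The dashed line is the 10 kb limit. Inside it the 6 peaks reach 162, and outside it 3 peaks at Optix and eya reach 365, 438 and 479.

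Other genes of eye development, from lists written with earlier results of these data known, were called by the same rule against the same 51.6% of all genes. One symbol of 31 matched no gene and was not analysed here, and 15 of the other 30 had a main-list summit. Among 17 factors of the eye field and photoreceptors, 5 did: ro, oc, Pph13, bi and gl. The highest was that at ro (124.1), 9996 bp away at the promoter of ball, followed by oc (107, intergenic), an Otx homeodomain gene, Pph13 (105, at the promoter of cold) and bi (81.6, intronic). Extradenticle, the partner of Hth, and the tsh paralogue tio had no summit in any thresholded list. Of 5 cofactors and kinases, 4 had one: sbb (383), gro (367), which encodes a corepressor, Abl (114, at the promoter of CG4101) and nmo (108, at the promoter of HP4). The gro and sbb peaks lay inside those genes, and both replicates had them, with 173 and 197 at gro and 215 and 171 at sbb. Of 8 signals and receptors, 6 did, led by spi (258), dpp (228), N (179) and Egfr (65.4). In the other series-wide list 4 of 8 did, against 53.0% of all genes. In each replicate's own list 3 of 8 did, against 44.0% of all genes in replicate 1 and 41.8% in replicate 2. The tagged gene Rx had 4 main-list summits in range, 1 in replicate 1 and 2 in replicate 2.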

How the data were processed

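Peaks were deposited by the authors as 8 lists on dm6, per the labels. Neither aligner nor peak caller was named in the sources used here. No file gives read counts, so depth is unknown. In the deposited lists, peak height is a signal value of unstated scale, the IDR score is a whole number with a lowest value of 830 in thresholded lists, and ranked lists hold a −log10 global IDR. The labels give a fragment size range of 200 to 800 bp. From these, summits (start plus offset, 1-based) were assigned to genes of Ensembl release 115 within 10 kb, with Python 3.11.15, pandas 2.3.3 and scipy 1.17.1. The signal of a peak in a replicate is that of the highest peak of its ranked list overlapping by at least 1 bp. Promoters reach 500 bp from protein-coding starts. Motifs were searched in 201-bp windows of the Release 6 genome, with soft-masking as given there. Intervals are 95% Wilson intervals and cover counting error only. No test was run, since there is 1 group and genes are not replicates. Counting was tested on simulated data. All 10 genes are named, with up to 4 genes per list of other eye genes having the highest peaks, plus hosts and nearest genes. Names outside this rule (gl, exd, tio, genes near peaks beyond 10 kb or on chromosome 4) complete a count or were chosen after their values were seen. The members, the lists and the word ACAGTG were chosen with earlier results of these data known. Alternatives were other lists, each replicate alone, flanks, promoter sizes, windows and overlaps.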

Additional observations from a re-analysis of the deposited data

How the results depend on the processing

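No paired analysis was possible because there is 1 group and no result comes from a test. Of 223 values under 16 alternative settings, 68 moved. The other 155 changed by at most 1.5 times (counts), stayed inside the 95% Wilson interval (shares, wide with 6 peaks) or within 1 SD (percentiles), and many are counts or shares of 0. With 200 bp to each side, the windows with BEAF-32 went from 1 to 3 of 6 (43.9% of all windows of that length), with a CTCF-like word from 0 to 2 (17.7%) and with a dimer from 0 to 1 (4.37%), all inside those intervals. With the other series-wide list, where 53.0% of all genes had a summit, 1 gene had 3 summits. The median signal percentile was then 80.3 instead of 41.8, and 100% instead of 50% of the peaks were in both replicates. The promoter and homeodomain core shares were 0 instead of 16.7%. With the 50% of peaks highest in signal, 1 gene had 3 summits, the percentile was 58.7, both shares were 0, and 3 eye factors and 3 signals had a summit instead of 5 and 6. With no flank, where 9.40% of all genes had a summit, 1 gene had 2 summits, the percentile was 79.5 and the promoter share was 0. There 1 eye factor had a summit, and with 2 kb, where 26.5% of all genes had one, 3 factors did. With 20 kb, where 68.7% of all genes had a summit, 6 genes had 14 summits and the percentile was 66.6. An IDR score of 1000 left 1 gene with 3 summits, and a promoter of 200 bp gave a share of 0. For the 50% list and the score of 1000, the share of all genes with a summit was not computed. A shorter list can lower such counts for any gene. Without hth, an alternative chosen after seeing the data, 2 summits remained, with a percentile of 12.4. Using 1 replicate's list alone gave 2 genes with 4 to 5 summits, where 44.0% (replicate 1) and 41.8% (replicate 2) of all genes had one. Percentiles were then 30.1 to 50.6 and promoter and core shares 0, and 3 to 5 eye factors, 4 cofactors and 3 signals had a summit. The cause of these shifts was not tested. Depth is unknown, so a missing peak does not show that Rx-eGFP was absent there.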

Other observations

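Chromosome 4, which carries ey and toy, held 3 main-list peaks. Of these, 2 lay near Sox102F, an HMG-box factor gene, at chr4:807405-807688 (signal 86.4, 200 bp from a start) and chr4:801348-801631 (57.7), and 1 lay nearest to a start of dati (59.8). The first was also in replicate 1's thresholded list, with 45.8, and was its only peak on 4. Replicate 2's 2 thresholded peaks on 4 were the one near toy and one 129 bp from a start of gw (65.8).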
